A study of Mus musculus with 26 samples.

Results

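Asb4 lies on mouse chromosome 6 in a cluster of genes known to be imprinted, that is, transcribed mainly from the copy inherited from one parent. The set described here holds Asb4 and 7 genes of that cluster (Peg10, Sgce, Ppp1r9a, Casd1, Pon2, Pon3 and Tfpi2), found by symbol in both deposited count tables. All 8 were among the 41442 gene rows of each table, and all 8 passed the low-count filter in both, where 17858 fetal and 16195 uterine genes were tested. Asb4 was selected on its uterine counts, which differed widely between the sorted cell populations, and its neighbours were taken by map position with that result known. The uterine values are therefore given as a description, and tests are given for the fetal comparisons.

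The cells came from mouse embryos that carried a Rosa-Tomato red reporter with either Gli1-CreER or Amhr2-Cre, and all dams received tamoxifen, 1 mg on each of E12.5 and E13.5 (E, day of embryonic development). Gli1-CreER marks cells that expressed Gli1, a target of hedgehog signalling, around the time of tamoxifen, and the mark is kept whether or not Gli1 stays on. Amhr2-Cre marks cells with a history of Amhr2, the receptor of anti-Müllerian hormone. Gli1+ cells were sorted from the mesonephros, the fetal organ that carries the Wolffian and Müllerian ducts, in 4 groups of 3 RNA-seq libraries: females and males at E14.5 and at E16.5. Amhr2+ and Gli1+ cells were sorted from the female uterus labelled neonatal, age E19.5, in 2 groups of 3. The number of animals behind each library is not given in the sources used here, so p-values measure the spread between these libraries, which may be technical. The sorts were measured in bulk, and fewer expressing cells and less RNA per cell cannot be told apart.

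Genomic imprinting marks the parental copies by DNA methylation, and one marked region can set the activity of several genes around it. In this cluster the marked region lies at the shared start of Peg10 and Sgce, which are known to be expressed from the paternal copy. Asb4 is known as maternally expressed in the embryo, and Ppp1r9a, Pon2, Pon3 and Tfpi2 have been described as maternally biased in placenta or other tissues. Asb4 encodes an ankyrin repeat protein whose SOCS box recruits a Cullin 5 ubiquitin ligase. The deposited counts are not split by parental copy, so they give the summed level of both copies and do not measure imprinting.

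The genes span 1470 kb of mm10. In map order they are Tfpi2 (chromosome 6, 3962595 to 3968376, minus strand), Casd1 (4600839 to 4643355, plus), Sgce (4674350 to 4747207, minus), Peg10 (4747306 to 4760517, plus) and Ppp1r9a (4902974 to 5165661, plus). Pon3 (5220852 to 5256286, minus), Pon2 (5264147 to 5298455, minus) and Asb4 (5383386 to 5433022, plus) complete the row. Sgce and Peg10 run head to head with 98 bp between them. Casd1, Ppp1r9a and Pon2 overlap clone-named transcripts of the tables, on the same strand for Casd1 and Ppp1r9a and on the opposite strand for Pon2. The setting for strand in counting is not given in the sources used here. Counts of these genes may include reads of those transcripts, for Casd1 and Ppp1r9a under any strand setting. The fetal libraries came from a non-stranded kit, so there this also holds for Pon2. In fetal libraries the overlapping transcripts were themselves counted at up to 0.855 CPM at Casd1, 0.305 at Ppp1r9a and 0.597 at Pon2. No other gene row overlaps Asb4, Peg10, Sgce, Pon3 or Tfpi2.

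The start regions of Asb4 and of its nearest member, Pon2, are shown because they differ in base composition and in how the ATAC-seq peaks (stretches of accessible chromatin) lie over them. The sequences are RefSeq's on GRCm38.p6, 250 bases before to 50 after a start, read 5′ to 3′ along the gene, with each CG dinucleotide in capitals. The first is the Asb4 start used by the count tables (chr6:5383136-5383435, plus strand), the second an internal Asb4 start (chr6:5390160-5390459, plus strand), and the third the Pon2 start (chr6:5298291-5298590, minus strand).
Asb4 outer start: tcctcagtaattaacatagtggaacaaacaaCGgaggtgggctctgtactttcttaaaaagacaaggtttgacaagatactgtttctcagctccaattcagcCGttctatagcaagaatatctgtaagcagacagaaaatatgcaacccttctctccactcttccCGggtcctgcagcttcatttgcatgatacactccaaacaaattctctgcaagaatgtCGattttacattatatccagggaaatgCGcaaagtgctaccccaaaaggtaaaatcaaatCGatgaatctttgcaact
Asb4 internal start: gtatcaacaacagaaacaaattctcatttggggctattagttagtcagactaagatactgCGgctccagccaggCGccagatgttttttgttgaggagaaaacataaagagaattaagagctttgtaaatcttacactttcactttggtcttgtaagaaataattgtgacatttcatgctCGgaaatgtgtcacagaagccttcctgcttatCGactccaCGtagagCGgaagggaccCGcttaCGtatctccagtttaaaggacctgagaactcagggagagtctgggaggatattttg
Pon2 start: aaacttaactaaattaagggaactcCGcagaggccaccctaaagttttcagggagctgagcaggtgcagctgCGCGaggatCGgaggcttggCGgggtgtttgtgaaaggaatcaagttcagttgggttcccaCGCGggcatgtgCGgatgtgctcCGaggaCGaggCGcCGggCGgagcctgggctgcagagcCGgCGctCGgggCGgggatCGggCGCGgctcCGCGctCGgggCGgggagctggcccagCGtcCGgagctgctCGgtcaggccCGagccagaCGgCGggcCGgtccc
The windows hold 6, 8 and 31 CG dinucleotides, against a median of 7 over 32841 RefSeq windows of the same length. None of the 3 contains TATAAA on either strand, which 13.6% of all windows contain. The Gli-type motif GACCACCCA, searched on both strands, was in none of the 3 and in 0.253% of all windows. RefSeq windows were matched for 6 of the 8 members; Peg10 and Sgce were not among them.

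The deposited peak list is 1 list for all ATAC-seq samples, without heights, so peaks are described by position alone. All 8 members had a peak within 1 kb of an annotated GENCODE M21 start, as did 89.1% of the 14577 tested fetal genes with a symbol in that annotation. No peak overlapped the outer Asb4 window. The nearest upstream peak was centred 693 bp before that start and was 751 bp wide. A peak of 433 bp, chr6:5390195-5390627, covered the internal Asb4 start. The Pon2 window was overlapped by a peak of 416 bp. A single peak, chr6:4747098-4747367, covered the space between the Sgce and Peg10 starts and both starts. Peaks inside the gene numbered 5 in Asb4, 11 in the much longer Ppp1r9a and 1 or 2 in each of the other 6.

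Fetal libraries held 23382983 to 64602477 counts and uterine ones 28709191 to 37541045. Levels are given as CPM, read counts relative to library size after TMM scaling, and a floor of 3 counts lay between 0.0485 and 0.126 CPM across the fetal and between 0.0778 and 0.102 CPM across the uterine table. All 8 mesenchyme markers were detected in every group, summing to 34030 to 65030 CPM in fetal libraries. Their sum was 26640 to 28490 CPM in uterine Amhr2+ and 54910 to 61850 in uterine Gli1+ libraries. Gli1 itself measured 10.5 ± 2.63 CPM (SD, n = 3) in uterine Amhr2+ and 17.9 ± 2.85 in uterine Gli1+ cells, and Amhr2 measured 11.1 ± 4.31 and 4.1 ± 0.997 CPM, so both transcripts were present in both sorts. Among other cells' markers, the 5 smooth muscle genes summed to 298 to 321 CPM in E14.5 females, 598 to 882 in E14.5 males, 462 to 563 in E16.5 females and 1708 to 2879 in E16.5 males. The 6 endothelial genes summed to 115 to 126, 103 to 117, 65 to 78.4 and 82.2 to 91.8 CPM in the same order. In the same order the 7 epithelial genes summed to 24.6 to 28.6, 32.2 to 40.4, 14.4 to 19 and 21.3 to 22.8 CPM, and the 7 genes of gonadal somatic cells to 44.6 to 46.9, 47.7 to 55.7, 45.6 to 51.6 and 63.7 to 71.4 CPM. The 4 germ cell genes stayed at or below 2.53 CPM in fetal libraries, with Dppa3 at 0 counts in all of them. Gli1, its fellow hedgehog target Ptch1 and Amhr2 together held 774 to 880 CPM in E14.5 females, 1052 to 1162 in E14.5 males, 136 to 148 in E16.5 females and 620 to 1060 in E16.5 males. The 6 erythroid genes summed to 5.26 to 949 CPM in E14.5 females and to at most 23.9 CPM in the other fetal groups.

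**Figure D1:**
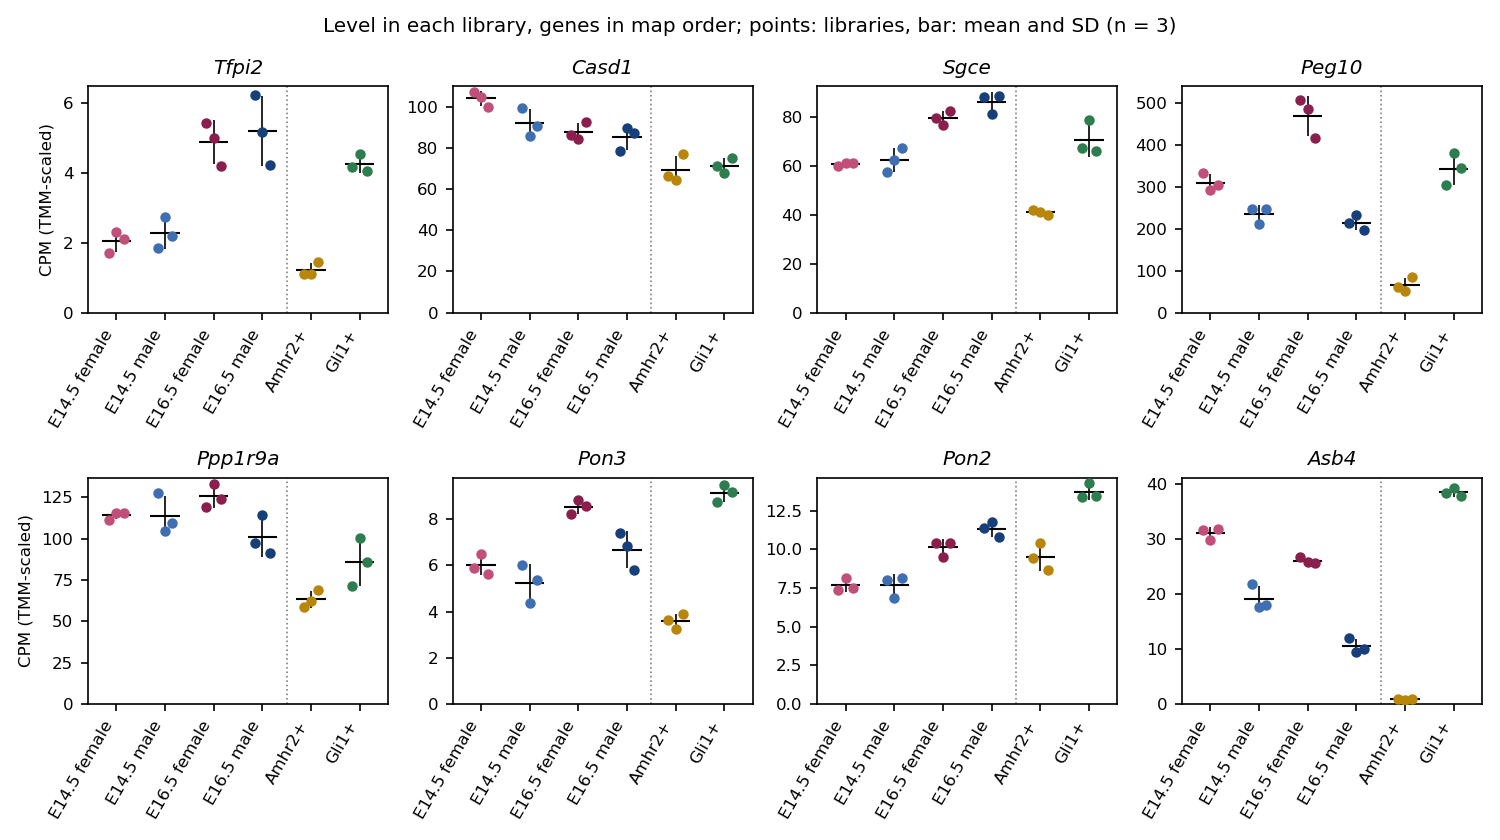
CPM of each member in each library, genes in map order; fetal groups lie left and uterine groups right of the dotted line, which separates tables that were never scaled together. Points are libraries and bars the mean and SD of 3. Asb4 falls from 31 CPM in E14.5 females to 10.5 in E16.5 males and is near 0 in uterine Amhr2+ cells.

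The first question was whether the sexes differ, and for Asb4 they did at both ages. At E14.5, Asb4 measured 31.6, 29.7 and 31.8 CPM in females and 21.9, 17.6 and 18 CPM in males. Every female library was above every male one, by a fitted log2 fold change of 0.70 (SE 0.0971, edgeR quasi-likelihood adjusted p = 0.000366). Female libraries at E16.5 held 26.7, 25.8 and 25.6 CPM, and male libraries 12, 9.53 and 9.97. The groups again did not overlap, and the female level was 2.48 times the male level (log2 fold change 1.31, SE 0.0987, adjusted p = 8.818e-08 by edgeR). The female excess was larger at E16.5 than at E14.5, with an interaction of 0.61 on the log2 scale (SE 0.138, edgeR adjusted p = 0.00887). Fetal group means of Asb4 ran from E14.5 females (31 ± 1.12 CPM) through E16.5 females (26 ± 0.571) and E14.5 males (19.2 ± 2.36) to E16.5 males (10.5 ± 1.32), and no neighbouring pair in this order overlapped.

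Peg10, a gene derived from a retrotransposon and needed for the placenta, was the other member higher in females at both ages. At E14.5 it measured 333, 293 and 304 CPM in females and 246, 211 and 248 in males. The female libraries were all higher, with a log2 fold change of 0.40 (SE 0.0889, edgeR adjusted p = 0.0126), but the call was lost without E14.5 female replicate 1 (0.0783) or E14.5 male replicate 2 (0.0686). E16.5 female libraries held 506, 486 and 416 CPM and male libraries 213, 232 and 197, a log2 fold change of 1.13 (SE 0.0896, edgeR adjusted p = 1.438e-07). Its interaction was 0.73 (SE 0.126, edgeR adjusted p = 0.00113), so that the sex difference of Peg10, like that of Asb4, was larger at the later age.

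Sgce encodes epsilon-sarcoglycan, a membrane protein, and starts 98 bp from Peg10. It passed the threshold between the sexes at neither age. In E14.5 females it measured 60.2, 61.3 and 61 CPM and in E14.5 males 57.6, 62.3 and 67.2. At E16.5 the values were 79.8, 76.7 and 82.6 CPM in females and 88.2, 81.4 and 88.7 in males. The sexes overlapped at both ages, with log2 fold changes of -0.04 (SE 0.0667, edgeR adjusted p = 0.832) and -0.11 (SE 0.0658, edgeR adjusted p = 0.234).

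Ppp1r9a encodes neurabin, an actin-binding partner of protein phosphatase 1. At E16.5 its level was 119, 133 and 124 CPM in females and 97.4, 114 and 91.4 in males. Every female library was higher and the log2 fold change was 0.32 (SE 0.0864, edgeR adjusted p = 0.0126), a call lost without E16.5 female replicate 2 (0.0808) or E16.5 male replicate 3 (0.0809). At E14.5 its means were 114 ± 2.46 and 114 ± 12.1 CPM, with overlap. Its interaction of 0.31 (edgeR adjusted p = 0.132) was called without E16.5 male replicate 2 (0.0344). Pon3, one of the paraoxonases, enzymes that cleave lactones, had 8.23, 8.84 and 8.56 CPM in females at E16.5 and 7.41, 6.86 and 5.8 in males. The groups did not overlap, but the log2 fold change of 0.36 (SE 0.129) gave an edgeR adjusted p of 0.0518. With the replicate number as a block, which pairs the E16.5 libraries, the adjusted p was 0.041. DESeq2 gave 0.0375, and edgeR without E14.5 male replicate 1, E14.5 male replicate 2 or E16.5 male replicate 1 gave 0.0396, 0.0373 and 0.0246.

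Casd1, Pon2 and Tfpi2 passed the threshold in neither sex comparison. Casd1 encodes a sialic acid O-acetyltransferase with 87.7 ± 4.24 CPM in females at E16.5 and 85.1 ± 5.94 in males. For Pon2, the paraoxonase gene next to Asb4 among the members, the values were 10.1 ± 0.514 and 11.3 ± 0.485 CPM, the male libraries all being higher (log2 fold change -0.16, SE 0.0986, edgeR adjusted p = 0.263). Tfpi2, which encodes a secreted inhibitor of serine proteases, stood at 4.88 ± 0.631 and 5.2 ± 1 CPM.

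Counted over the set, 2 of 8 members were called at E14.5, 3 of 8 at E16.5 and 2 of 8 in the interaction, all higher in, or moving toward, females. Over all tested genes 6.28%, 27.3% and 10% were called in either direction, with 2.59%, 13.2% and 4.66% in the female direction and 3.69%, 14.1% and 5.36% in the male direction. The sexes did not overlap for 3 of 8 members at E14.5 (27.2% of all genes) and for 5 of 8 at E16.5 (38.3%). The median log2 fold change of the members was 0.09 at E14.5 and 0.18 at E16.5, beside -0.01 and 0.01 over all genes. At E16.5 the share of members called was thus not far from that of all genes. What set Asb4 and Peg10 apart within the set was the size of the difference. The smooth muscle and epithelial sums and the sum of Gli1, Ptch1 and Amhr2, given above, were higher in males at both ages without overlap. So were the gonadal somatic and germ cell sums. Gene by gene this was less uniform. At E14.5, 1 of 7 epithelial and 1 of 5 tested gonadal somatic genes were called, both lower in females. The median log2 fold changes of these 2 lists were 0.09 and 0.18, on the female side. Within the sum of Gli1, Ptch1 and Amhr2, Amhr2 went the other way, with 30.6 ± 1.84 CPM in females and 8.47 ± 1.45 in males at E14.5. At E16.5 it measured 13.3 ± 3.83 and 1.82 ± 0.503 CPM. The endothelial sum was also higher in males at E16.5, while at E14.5 its ranges overlapped. Its 6 genes were split at E16.5, with 2 called higher and 2 lower in females and a median log2 fold change of 0.05. At E14.5, 2 were called higher in females and 0 lower, with a median of 0.49. Higher in females without overlap were the neural sum at E14.5 (12.82 to 13.98 against 10.94 to 11.85 CPM) and the erythroid sum at E16.5 (12.2 to 23.9 against 4.83 to 8.08). The immune and mesenchyme sums overlapped between the sexes at both ages. Of their genes, 3 of 5 immune and 4 of 8 mesenchyme markers were called higher in females at E16.5, with 0 and 2 lower. The part of these in the sex differences was not tested.

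**Figure D2:**
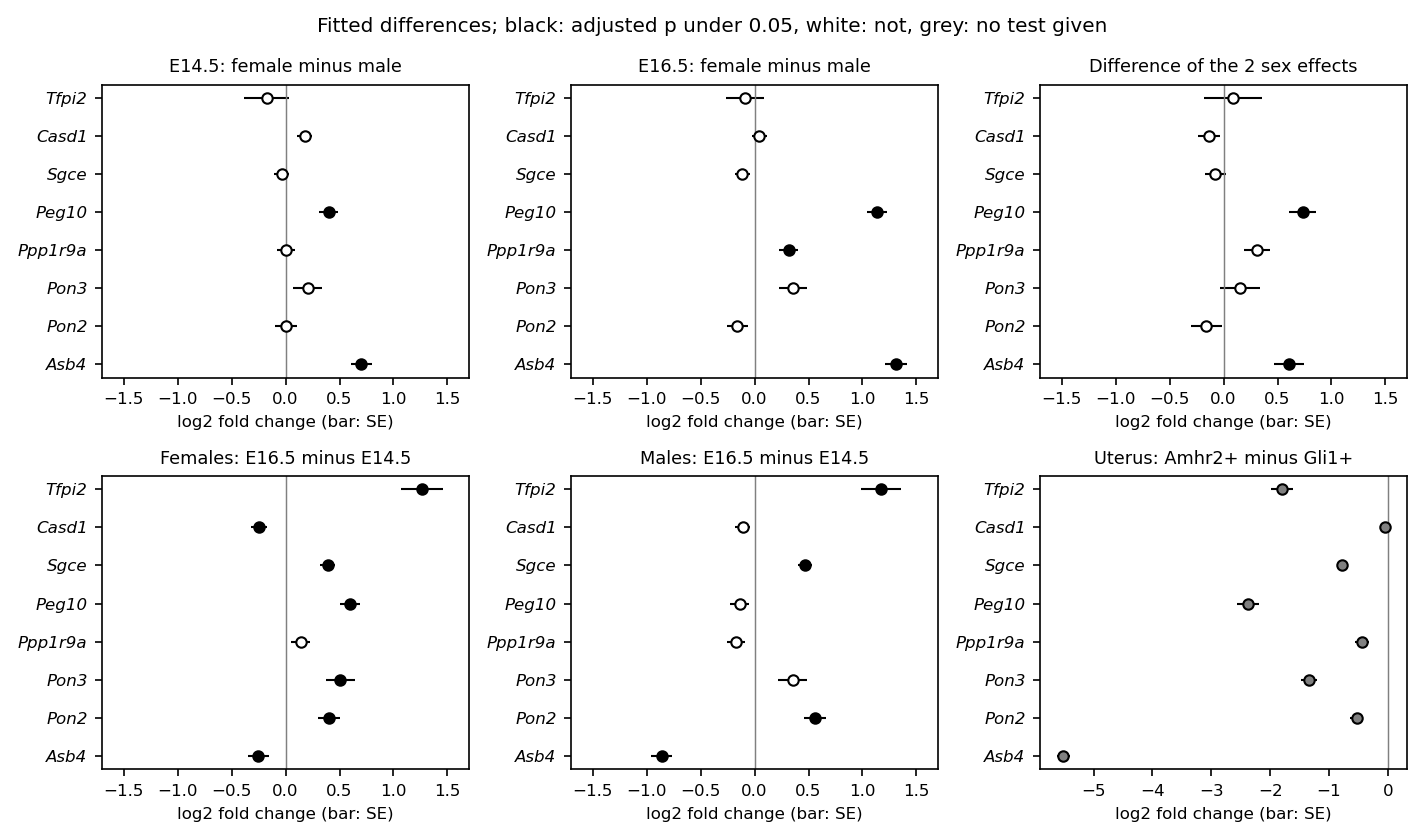
Fitted log2 fold changes of the 8 members with their SE in 5 fetal comparisons and the uterine one, in map order from top to bottom. Filled black points passed an adjusted p of 0.05, white ones did not, and grey marks the uterine values, given without a test. Asb4 and Peg10 lie on the female side in both sex panels, and on opposite sides of 0 with age in females.

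The second question was how the genes change between E14.5 and E16.5, and here Asb4 fell in both sexes while Sgce, Pon2 and Tfpi2 rose in both. In males Asb4 fell by 0.86 on the log2 scale (SE 0.0994, edgeR adjusted p = 1.042e-05), from the 17.6 to 21.9 CPM of the E14.5 libraries to 9.53 to 12 CPM. In females the log2 fold change was -0.25 (SE 0.0956, edgeR adjusted p = 0.0467). All E16.5 female libraries lay below all E14.5 ones, but that call was weak. It was lost without any 1 of the 6 female libraries or without E14.5 male replicate 3, with adjusted p from 0.0551 to 0.127, and without the low-count filter (0.085).

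Sgce rose in both sexes, by a log2 fold change of 0.39 in females (SE 0.0666, edgeR adjusted p = 0.000296) and 0.46 in males (SE 0.0662, adjusted p = 8.562e-05). Pon2 rose with 0.40 in females and 0.56 in males (edgeR adjusted p = 0.00628 and 0.000683). Tfpi2 more than doubled in both, from 2.04 ± 0.308 to 4.88 ± 0.631 CPM in females and from 2.27 ± 0.451 to 5.2 ± 1 in males (log2 fold changes 1.26 and 1.17, edgeR adjusted p = 0.000128 and 0.000236). These 3 genes lay on the other side of 0 from Asb4 in either sex.

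Peg10 rose in females, from 310 ± 20.6 to 469 ± 47.4 CPM (log2 fold change 0.60, SE 0.0889, edgeR adjusted p = 8.351e-05). In males it stood at 235 ± 20.8 and 214 ± 17.5 CPM, with overlap and no call (log2 fold change -0.14, SE 0.0887, edgeR adjusted p = 0.297). Pon3 rose in females with 0.51 (edgeR adjusted p = 0.00723), and in males had 0.35, with an adjusted p of 0.067. DESeq2 gave 0.0459 for the male value, and edgeR without E14.5 male replicate 1 or without E16.5 male replicate 3 gave 0.0357 and 0.026. Casd1 was the other member that fell in females, with -0.25 (edgeR adjusted p = 0.0123), lost without E14.5 female replicate 1 (0.0553) or E16.5 female replicate 2 (0.0577). Ppp1r9a was called in neither sex, with log2 fold changes of 0.14 in females and -0.17 in males (edgeR adjusted p = 0.221 and 0.168); its call in females was gained in the fit of only the 6 female libraries (0.044) and its call in males without E16.5 male replicate 2 (0.0324).

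With age, 5 of 8 members rose and 2 fell in females, and 3 rose and 1 fell in males. Over all genes 21% rose and 18.6% fell in females, and 13.1% rose and 10.2% fell in males, 39.6% and 23.3% in either direction. The ages did not overlap for 8 of 8 members in females (56.6% of all genes) and for 4 of 8 in males (34.9%). The endothelial and epithelial sums were lower and the smooth muscle and mesenchyme sums were higher at E16.5 than at E14.5 in both sexes, without overlap. The mesenchyme sum went from 39600 to 41720 CPM to 55790 to 65030 in females, and from 34030 to 39640 to 45910 to 57350 in males. In males 2 of 6 endothelial genes were called higher and 2 lower with age, so the lower sum does not hold for each gene. Nor does the higher mesenchyme sum. Of its 8 genes, 4 were called higher and 2 lower with age in females, and 5 higher and 2 lower in males. The part of these marker sums in the age changes was not tested. The sex and age comparisons share libraries, so the agreement of any gene across them is not separate evidence.

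**Figure D3:**
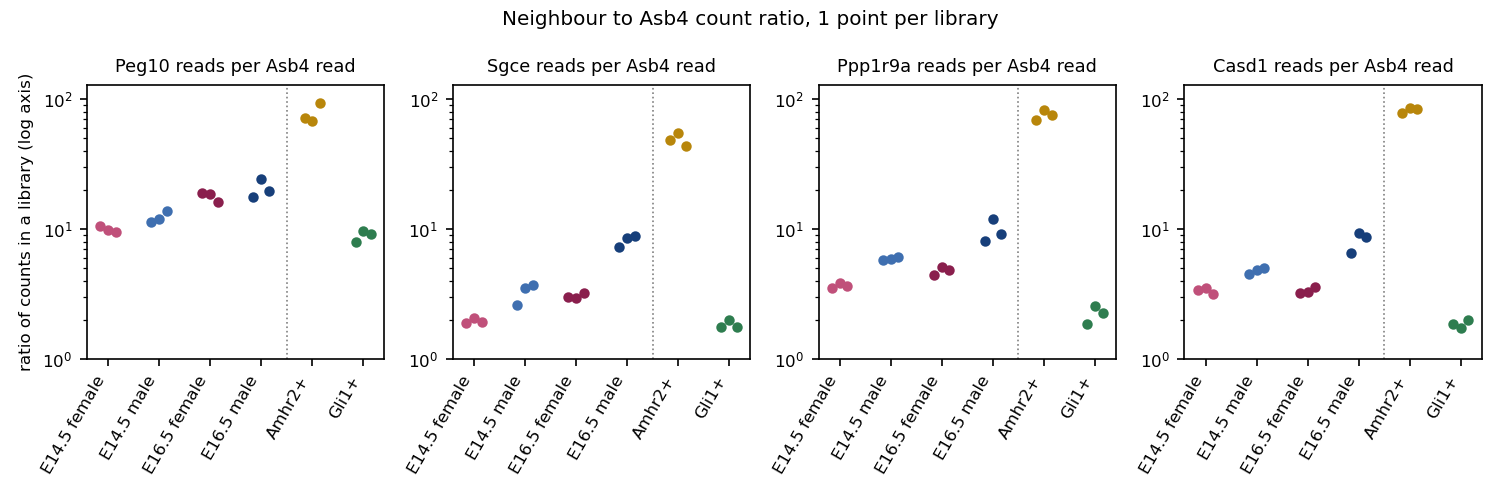
Reads of Peg10, Sgce, Ppp1r9a and Casd1 per Asb4 read in each library, on a log axis, which no scaling between libraries can change. The Peg10 ratio of E16.5 females (16.2 to 19) overlaps that of E16.5 males (17.8 to 24.3), whereas the Sgce, Ppp1r9a and Casd1 ratios of the sexes lie apart. Uterine Amhr2+ libraries stand highest in every panel.

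Because a ratio within a library needs no scaling, reads of each neighbour were also set against those of Asb4. The Peg10 ratio was 9.57 to 10.6 in E14.5 females and 11.3 to 13.7 in E14.5 males, then 16.2 to 19 in E16.5 females and 17.8 to 24.3 in E16.5 males. It overlapped between the sexes at E16.5 and lay apart between the ages. The Sgce ratio was 2.97 to 3.23 in E16.5 females and 7.35 to 8.9 in E16.5 males, without overlap, and those of Ppp1r9a (4.47 to 5.16 against 8.11 to 12) and Casd1 (3.24 to 3.61 against 6.53 to 9.43) were also apart. With 3 libraries a group no test is given for these ratios.

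Per kilobase of annotated exon, Peg10 was the most abundant member in the 4 fetal groups and in uterine Gli1+ cells, at 32.1 to 70.4 CPM per kb. Casd1 came next in those groups, at 17.7 to 25.8 CPM per kb. In uterine Amhr2+ cells the order was the other way, with 17.2 CPM per kb for Casd1 and 9.91 for Peg10. Asb4 ranged from 2.67 CPM per kb in E16.5 males to 7.89 in E14.5 females, while Sgce held 5.73 to 8.12 and Ppp1r9a 6.95 to 8.65 over the fetal groups. In E16.5 males Asb4 was below both and lay between Pon3 (1.98) and Tfpi2 (2.98). Pon2, Pon3 and Tfpi2 were the least abundant of the set in fetal females, at 1.05 to 2.79 CPM per kb.

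In the uterus the question was how Amhr2+ and Gli1+ cells differ, and this contrast is the one on which Asb4 was chosen. Asb4 measured 0.856, 0.755 and 0.915 CPM in Amhr2+ libraries, from 33, 28 and 27 reads, and 38.3, 39.3 and 37.8 CPM in Gli1+ libraries. The Amhr2+ level was low but above the 3-count floor in all 3 libraries, and the fitted level was 45.7 times higher in Gli1+ cells (log2 fold change -5.51, SE 0.11).

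The neighbours lay on the same side, by smaller amounts. Peg10 had 61.3, 51.8 and 85 CPM in Amhr2+ and 304, 380 and 345 CPM in Gli1+ libraries (log2 fold change -2.38, SE 0.186). Tfpi2 measured 1.23 ± 0.201 against 4.25 ± 0.265 CPM and Pon3 3.6 ± 0.319 against 9.12 ± 0.374, log2 fold changes of -1.80 and -1.34. For Sgce the libraries held 41.8, 41.2 and 40.1 CPM in Amhr2+ and 67.4, 78.7 and 66.2 in Gli1+ cells (log2 fold change -0.79). Pon2 and Ppp1r9a had -0.53 and -0.44, and all 3 Gli1+ libraries of either gene lay above the Amhr2+ ones. Casd1 overlapped, at 69.3 ± 6.83 and 71.3 ± 3.65 CPM, and its small difference turned sign with library size as the only scaling (log2 fold change -0.04 against 0.04).

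Under edgeR's threshold 7 of 8 members were lower in Amhr2+ cells, where 13.7% of all tested genes were called lower 10.1% higher and 23.9% in either direction. The sorts did not overlap for 7 of 8 members, and for 44.4% of all genes. Since the contrast chose the set, nothing is read from these counts. The mesenchyme marker sum was also lower in Amhr2+ cells, as given above. Epithelial markers summed to 49.9 to 50.8 CPM in Amhr2+ and 18.2 to 29.6 in Gli1+ libraries, and smooth muscle markers to 858 to 1382 and 1754 to 1822 CPM. Endothelial markers summed to 24 to 29.8 CPM in Amhr2+ and 37.2 to 45.2 in Gli1+ libraries. Gonadal somatic genes summed to 72.5 to 120.5 and 62.7 to 65.8 CPM, and neural genes to 10.6 to 14.7 and 9.57 to 9.95. Erythroid genes summed to 0.539 to 1.06 and 2.59 to 3.19 CPM, while the immune sums overlapped. The germ cell genes summed to 0.475 to 0.944 and 5.28 to 6.53 CPM, nearly all of it in Gli1+ libraries from Ddx4 (5.87 ± 0.684 CPM, against 0.608 ± 0.262 in Amhr2+), with Dppa3 at 0 in both sorts. The part of these in the uterine difference was not tested. The ratio of Peg10 to Asb4 reads was 68.6 to 92.8 in Amhr2+ and 7.92 to 9.68 in Gli1+ libraries, a description of the contrast on which Asb4 was chosen.

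**Figure D4:**
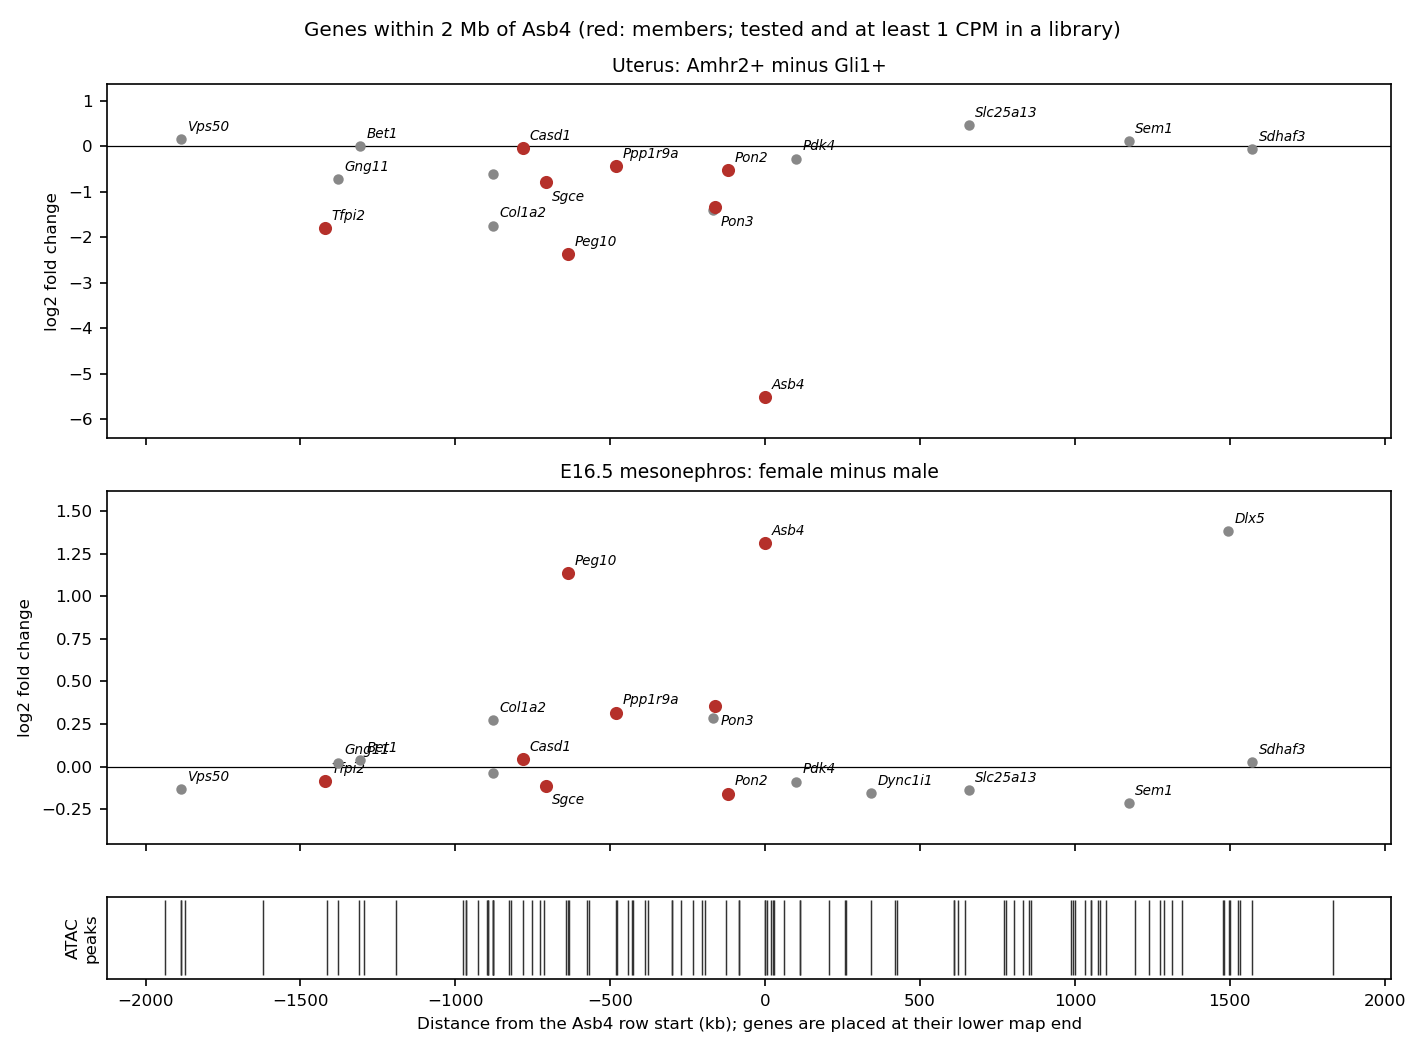
Log2 fold change of genes within 2 Mb of Asb4 against distance from its start, in the uterus (top) and between the sexes at E16.5 (middle), with the pooled ATAC-seq peaks below. Red points are members and grey points other genes, unlabelled where the table gives a clone name. Asb4 lies lowest in the uterus at -5.51, and Asb4 and Peg10 stand at 1.31 and 1.13 at E16.5, with Sgce, beside Peg10, at -0.11.

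A list of 24 named genes from Calcr to Asns was used for the wider region, and its other genes are given beside the members. Beyond the members, 13 were tested in the fetal table and 12 in the uterine one. At E14.5, 2 of the 13 were called, both lower in females: Dlx5 and Dlx6, homeobox genes with at most 2.09 CPM in any fetal library. At E16.5, 4 were higher (Tac1, Dlx5, Asns and Col1a2) and 1, Sem1, was lower. Over all tested genes 6.28% were called at E14.5 and 27.3% at E16.5, in either direction. Tac1, the substance P gene, had the largest, 1.9 ± 1.26 against 0.217 ± 0.0415 CPM (log2 fold change 3.09, edgeR adjusted p = 0.000882). In the uterus Col1a2, a collagen gene that lies between Tfpi2 and Casd1, stood at 5309 ± 123 CPM in the Amhr2+ and 17839 ± 1541 CPM in the Gli1+ sort (log2 fold change -1.75). Gng11, a G protein gamma subunit gene, had -0.72 and Asns, for asparagine synthetase, 0.65, and the other 9 were not called. Over all tested uterine genes 23.9% were called in either direction. Pdk4, the nearest listed gene beyond Asb4, measured 5.21 ± 0.885 and 6.28 ± 0.978 CPM, with overlap. Clone-named genes were not on the list. Among them RP23-380L19.3, between Ppp1r9a and Pon3, reached 10.6 CPM in fetal and 12.8 in uterine libraries. It was called higher in females at E16.5 (log2 fold change 0.29) and in no other fetal comparison, and had -1.40 in the uterus. RP23-56M2.7, inside Col1a2, had -0.04 at E16.5, without a call, and -0.62 in the uterus.

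With age, 6 of the 13 listed genes rose and 2 fell in females, while 3 rose and 4 fell in males. Over all tested genes 39.6% were called with age in females and 23.3% in males, in either direction. Slc25a13, the gene of a mitochondrial aspartate and glutamate carrier, fell in both sexes, like Asb4, with log2 fold changes of -0.97 and -0.69 (edgeR adjusted p = 1.044e-06 and 4.338e-05). Its sex comparisons were not called.

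The Asb family, whose proteins share the SOCS box, was counted next. Of 12 tested, Asb4 included, 2 were called at E14.5 and 3 at E16.5, which is 16.7% and 25% beside 6.28% and 27.3% of all genes. Asb2, known from blood and muscle cells, was lower in females at both ages, 0.637 ± 0.105 against 6.22 ± 1.39 CPM at E16.5 (log2 fold change -3.29, edgeR adjusted p = 6.366e-08), the opposite direction to Asb4. Asb10 had 0.891 ± 0.117 CPM in females at E16.5 and 0.259 ± 0.0654 in males (log2 fold change 1.76, edgeR adjusted p = 0.0015). Of 10 listed partners of the ligase, edgeR and DESeq2 each called 0 between the sexes at either age, in the interaction and in the uterus. At an unadjusted p under 0.05 edgeR had 2 at E16.5 (Eloc and Ube2f) and 0 in the other 3 of these comparisons. With age, 1 of the 10 was called in males (Hif1an), where 23.3% of all genes were. In females 5 of the 10 were, beside 39.6% of all genes, among them Cul5, the scaffold of the ligase, with a log2 fold change of -0.33 (edgeR adjusted p = 0.00357).

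Imprinted genes outside this cluster were counted from a list of 51, of which 47 were tested in fetal and 45 in uterine libraries. At E14.5, 8 were called between the sexes, all lower in females, and at E16.5 9 were higher and 5 lower. These are 17% and 29.8% of the list, beside 6.28% and 27.3% of all genes, so the E16.5 share was near the background. H19, a maternally expressed RNA, stood at 6074 ± 203 CPM in females at E16.5 and at 4668 ± 252 in males (log2 fold change 0.38, edgeR adjusted p = 0.000727), and Igf2, a growth factor gene, 276 ± 40.8 and 206 ± 8.32 CPM (0.42, adjusted p = 0.00339). Slc22a3, a cation transporter gene, stood at 2.38 ± 0.397 against 21.7 ± 4.21 CPM (log2 fold change -3.19, edgeR adjusted p = 1.665e-09). In the uterus 5 of 45 were higher and 13 lower in Amhr2+ cells, 40% beside 23.9% of all genes, among the lower ones Dcn, the decorin gene, with -1.54. The median log2 fold change of the list at E16.5 was 0.08, beside 0.01 over all genes.

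Genes with the pattern most like that of Asb4 were named by the root mean square difference of centred log2 CPM over the 12 fetal libraries. Astn2, Gja1, Edil3, Igfbp5 and Nfatc2 were nearest, with differences of 0.108 to 0.176 on the log2 scale, and none lies on chromosome 6. Astn2, which encodes astrotactin 2, measured 40.8 ± 1.83, 25.8 ± 3.61, 38.8 ± 1.31 and 16.2 ± 1.78 CPM in E14.5 females, E14.5 males, E16.5 females and E16.5 males. Gja1, the gap junction gene for connexin 43, measured 68 ± 3.34, 43.9 ± 5.1, 63.9 ± 6.68 and 26.7 ± 3.25 CPM in the same order. Among the members Peg10 came closest, with 0.432, at rank 525 of 17857 other genes. Ppp1r9a followed with 0.522 and rank 1882, Casd1 with 0.536 and rank 2306, and Pon3 with 0.632 and rank 7730. Sgce had 0.762 and rank 13390, Pon2 0.784 and rank 13874, and Tfpi2 1.08 and rank 16674. Of the other listed genes of the region, Calcr, with at most 0.443 CPM in a fetal library, had rank 759 and Asns rank 1143. Bet1 and Sdhaf3, called in no fetal comparison, had 0.566 (rank 3590) and 0.584 (rank 4557). A gene that hardly changes can thus reach such values. Those of Ppp1r9a, Casd1 and Pon3 lie near or above them and are not read as likeness to Asb4.

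**Figure D5:**
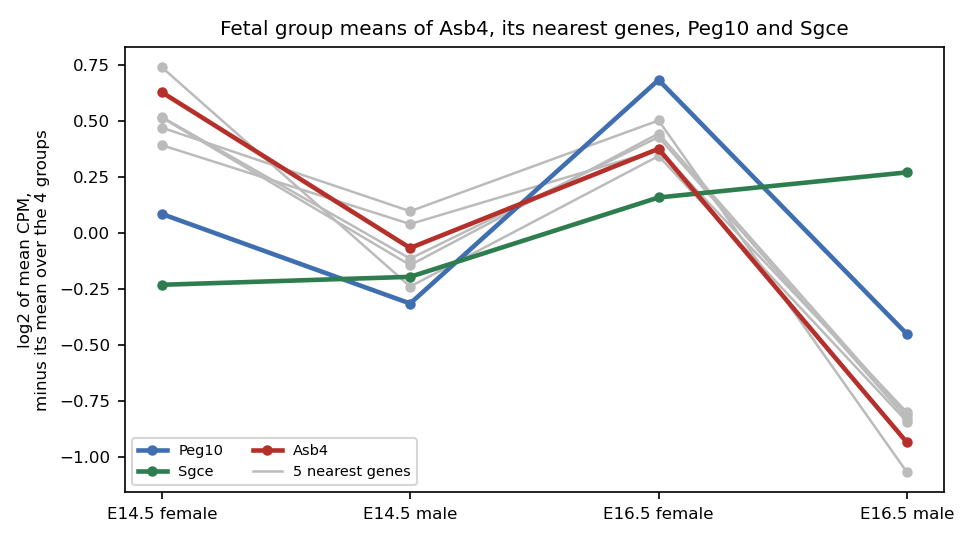
Log2 of the fetal group means, centred per gene, for Asb4 (red), Peg10 (blue), Sgce (green) and the 5 genes nearest to Asb4 (grey); lines join the groups of 1 gene. The grey genes run close to Asb4 through all 4 groups, Peg10 is highest in E16.5 females and Sgce rises with age in both sexes.

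Over the 6 uterine libraries the nearest genes to Asb4 were Nov, Cbln2 and Adtrp, with differences of 0.337, 0.48 and 0.506. Nov, a matricellular CCN protein gene, had 0.524 ± 0.108 CPM in the Amhr2+ and 17.7 ± 1.09 in the Gli1+ sort. Cbln2 and Adtrp had 1 to 5 reads in Amhr2+ libraries, and 59 to 91 and 106 to 120 reads in Gli1+ libraries. These likenesses are set by the contrast on which Asb4 was chosen, and those of Cbln2 and Adtrp, near the floor of 3 counts, also by the prior count.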

How the data were processed

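RNA was measured in 12 fetal and 6 uterine libraries, and accessible chromatin in 8 ATAC-seq samples. The authors deposited unnormalised counts of reads for each gene, 1 column per library and 1 table per tissue, on mm10 per the file headers. Per the submitters' processing notes, STAR 2.5, featureCounts (Subread 1.5.0-p1), Bowtie 1.2 and MACS2 2.1.1 were among the tools used; their roles and settings are not given in the sources used here. Per the labels' protocols the fetal libraries came from a non-stranded and the uterine ones from a stranded kit, so the tables were never fitted together.

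Counts were tested with edgeR 4.0.16 in R 4.3.3 (filterByExpr, TMM, robust quasi-likelihood test, Benjamini-Hochberg adjustment over all genes tested, threshold 0.05). The 4 fetal groups shared 1 model. The SE is the log2 fold change over the root of F. The test was checked on simulated counts. Log2 CPM for the likeness measure used a prior count of 2. Exon lengths and starts came from GENCODE M21 (GRCm38), and peaks counted within 1 kb of a start. Alternatives were DESeq2 1.42.0, library size only, no filter, a replicate block, the 6 libraries compared and leaving out each library.

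The members, lists and comparisons were chosen with earlier results of these data known. Named genes were the members, up to 6 called genes of each list by size of change, and the genes nearest to Asb4. Replicate numbers come from the sample titles. At E16.5 the deviations of same-numbered female and male libraries from their group means correlated at 0.284, 0.115 and 0.396, all over 0.1. These libraries were treated as pairs only in the replicate block. The main tests, with the SE, adjusted p and counts of calls given in the Results, did not pair them. E16.5 female replicate 2 and male replicate 1 also correlated at 0.108. The SD and SE rest on the spread between libraries, while the floors cover counting error only.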

Additional observations from a re-analysis of the deposited data

Results flagged for a closer look

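The sex difference itself differed between the ages for 2 of the 8 members, by edgeR's interaction test. For Asb4 the female minus male log2 difference was larger at E16.5 than at E14.5 by 0.61 (adjusted p = 0.00887), and over all alternatives the value ran from 0.51 to 0.71, with adjusted p from 0.00121 to 0.0316. For Peg10 it was larger by 0.73 (adjusted p = 0.00113), with 0.66 to 0.82 and adjusted p from 5.454e-06 to 0.0056 over the alternatives.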

How the results depend on the processing

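Over 672 recomputed fetal values of the members, 631 kept their direction and their side of the threshold, 14 lost and 11 gained a call, and 16 changed sign, all of them uncalled. With library size only, the E14.5 sex differences of Ppp1r9a and Pon2 became -0.014 and -0.016 on the log2 scale, and the uterine difference of Casd1 0.043. Leaving out single libraries moved the E14.5 sex difference from -0.091 to 0.021 for Sgce, -0.055 to 0.091 for Ppp1r9a and -0.076 to 0.054 for Pon2, and the E16.5 one from -0.012 to 0.083 for Casd1 and -0.23 to 0.065 for Tfpi2. The interaction of Tfpi2 ran from -0.070 to 0.24 and the uterine Casd1 value from -0.12 to 0.016. The uterine value of Asb4 ran from -5.57 to -5.43 over all alternatives. Counts of all called genes ranged from 553 to 1678 at E14.5 between sexes (1121 with all libraries), where leaving out a female library of that age gave 578 (replicate 1), 660 (replicate 2) or 653 (replicate 3), and a male one 686 (replicate 2) or 553 (replicate 3). They ranged from 1335 to 2687 for the interaction (1790), the highest without E16.5 male replicate 1, and from 1949 to 3521 in the uterus (3866), with 1949 without Amhr2+ replicate 1 and 2521 without Gli1+ replicate 1. The cause of these shifts was not tested. With library size only, the calls that were higher and lower became 3130 and 3924 with age in females (3746 and 3322 with TMM), 1847 and 2641 in males (2340 and 1828), and 2849 and 1640 in the uterus (1642 and 2224). A replicate block gave 1581 calls at E14.5 and 5901 at E16.5 between sexes, 7044 and 4172 with age, 1816 for the interaction and 4725 in the uterus. Beside that of Pon3 at E16.5, the block changed no call of a member in the fetal comparisons. Outside E16.5 the libraries share only a number: at E14.5 same-numbered libraries correlated at 0.0725, 0.0504 and 0.0508, each library best with its own number, as a hint from the data and not the design. In the uterus the values were 0.00176, 0.221 and 0.243. Among peaks no narrower than 233 bp, the median width, 7 of 8 members had a peak within 1 kb of a start. At 3 counts or fewer no level can be told from 0.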
